A study of Mus musculus with 1024 samples.

Results

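The 10 genes described here take part in the response of the vessel wall to flowing blood: the transcription factors Klf2, Klf4 and Nfe2l2, the enzymes Nos3, Ass1, Hmox1 and Nqo1, the cholesterol transporter Abca1, and the ion channels Piezo1 and Pkd2. They were taken by name from the 24422 genes counted in single cells sorted from the mouse aorta, and all 10 had counts. The study sorted viable cells without Cd45 into single wells through a Cd31+ gate, labelled Endothelial, or a Cd31- gate, labelled DoubleNegative, and sequenced each well with Smart-seq2, which reads whole transcripts without molecular identifiers. The mice were 3 months old and carried the genotype label WT or KO. The strain label of every well, WT wells included, combines Amotl2flow/flow with Cdh5-RREert and a ROSA26-EYFP reporter. The study's methods describe floxed Amotl2 alleles and a Cre under the Cdh5 promoter, CreERT2, that tamoxifen activates and that removed Amotl2, a scaffold of endothelial junctions, from endothelial cells. The aortas of 6 WT and 6 KO mice were pooled in 2 preparations per genotype, and the labels do not name the mouse of a well. The sorts are numbered 1 and 2 within each genotype and are called preparations here. The labels do not say that WT and KO sorts of the same number were handled together, although the WT and KO wells of number 2 share a plate. Of 1024 wells, 784 were kept, those that reached 20000 gene counts and 500 detected genes. Counts were summed over the wells of each genotype, preparation and gate, giving 8 sums that are the replicates of every test below, 2 per group.

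Laminar blood flow pulls on the luminal face of endothelial cells, which sense this shear stress through ion channels such as Piezo1 and the polycystins, the junctional complex and surface receptors. A kinase relay through Mekk3, Mek5 and Erk5 activates Mef2 factors, which switch on Klf2 and Klf4, and these in turn raise nitric oxide synthesis by Nos3 and restrain adhesion and clotting genes. Laminar flow is also known to activate Nrf2, the protein of Nfe2l2, a master regulator of antioxidant genes such as Hmox1 and Nqo1, and the flow that reaches arterial endothelium is a classical inducer of this whole programme.

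The labels held for most wells. Summed endothelial markers came to 14169 to 16740 CPM (a gene's counts scaled to a common total of counts on genes) in the 4 Endothelial sums and to 24.8 to 1233 CPM in the DoubleNegative sums, while smooth muscle markers came to 747 to 1650 CPM and to 21014 to 53368 CPM, respectively. Fibroblast markers came to 162 to 466 CPM in Endothelial sums. In the DoubleNegative sums they came to 29452 and 4022 CPM in WT and to 14972 and 7652 CPM in KO preparations 1 and 2. The mix of smooth muscle cells and fibroblasts thus differed between the DoubleNegative sums. Its part in the differences between those sums was not tested. In 21 Endothelial wells and 1 DoubleNegative well the markers went against the gate. EYFP, which reports recombination, had a count in 76.5% and 85.4% of KO Endothelial wells, in 1.70% and 4% of WT Endothelial wells and in 0% of DoubleNegative wells. Amotl2 stood at 59.9 and 94.0 CPM in WT and at 51.9 and 45.7 CPM in KO Endothelial sums, and counts over the whole gene do not resolve the deleted exon. Sums held 926398 to 94881185 counts, and WT and KO wells of preparation 1 were on separate plates, so in that preparation the genotypes and their plates cannot be told apart.

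Klf2 and Klf4, paralogous zinc finger factors that drive the endothelial programme of laminar flow, lie at chr8:72319033-72321656 on the plus strand and chr4:55527143-55532466 on the minus strand of GRCm38. Their promoters, taken from RefSeq on GRCm38.p6 from 250 bases before to 50 bases after the start, are printed because both genes start in dense CpG with repeated GC boxes. Capitals mark the GC box GGGCGG on either strand.
Klf2 promoter, chr8:72318812-72319111, plus strand: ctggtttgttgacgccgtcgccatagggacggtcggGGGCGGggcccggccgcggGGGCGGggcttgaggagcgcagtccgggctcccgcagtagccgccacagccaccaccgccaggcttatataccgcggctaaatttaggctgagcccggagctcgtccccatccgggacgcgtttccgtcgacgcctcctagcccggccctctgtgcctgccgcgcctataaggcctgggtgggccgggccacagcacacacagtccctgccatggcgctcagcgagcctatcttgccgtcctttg
Klf4 promoter, chr4:55532426-55532725, minus strand: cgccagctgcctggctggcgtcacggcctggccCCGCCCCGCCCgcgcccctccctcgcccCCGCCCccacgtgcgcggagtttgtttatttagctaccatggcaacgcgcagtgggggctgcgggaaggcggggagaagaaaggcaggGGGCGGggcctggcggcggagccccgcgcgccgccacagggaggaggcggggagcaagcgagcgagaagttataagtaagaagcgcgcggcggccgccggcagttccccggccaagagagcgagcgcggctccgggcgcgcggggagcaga
The GC box was present in 35.7% of 32851 promoters of this length and in 7 of the 8 genes of the set with a promoter in the table. The windows of Klf2 and Klf4 held 32 and 40 CpG and were 69.3% and 74.3% G or C, against a median of 52.7% over all promoters. The antioxidant response element TGACNNNGC, searched on both strands, was present in 12.4% of all promoters and in those of Nfe2l2 and Pkd2, although the start in the window of Nfe2l2 was not found as a transcript start of that gene in GENCODE. The promoters of Nos3 and Hmox1 were not read here.

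In endothelial cells the transcription factors and Nos3 stood well above the channels and the enzymes. Levels per kilobase (CPM per kilobase of exon), which allow genes to be compared, had a median over the 4 Endothelial sums of 80.2 for Nfe2l2 (range 70.9 to 83.5), 59.2 for Klf2 (46.1 to 67.6), 53.5 for Nos3 (34.8 to 59.8) and 52.6 for Klf4 (46.3 to 76.3). Nfe2l2 was above Klf2 in each of the 4, without overlap of the ranges, whereas the ranges of Klf2, Nos3 and Klf4 overlapped. A gap separated these 4 genes from Nqo1 (10.1, range 4.94 to 13.8) and Abca1 (9.28, range 6.64 to 15), whose ranges overlapped. Pkd2 followed at 4.79 (4.56 to 9.88), Hmox1 at 3.09 (1.35 to 3.66), Piezo1 at 2.66 (1.82 to 5.01) and Ass1 at 1.5 (1.31 to 1.87), and each of these overlapped a neighbour in the order. The exons of Pkd2 add up to 10169 bases while its longest coding transcript has 5219, so its level per kilobase would be higher over that transcript alone. In DoubleNegative sums, where smooth muscle and fibroblast markers prevailed, the medians ran from 40.1 for Nfe2l2, 22.5 for Klf4, 14 for Nqo1 and 12.9 for Klf2 through 8.81 for Pkd2, 6.11 for Hmox1 and 1.87 for Abca1 to 0.225 for Piezo1, with Nos3 and Ass1 at 0.

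**Figure D1:**
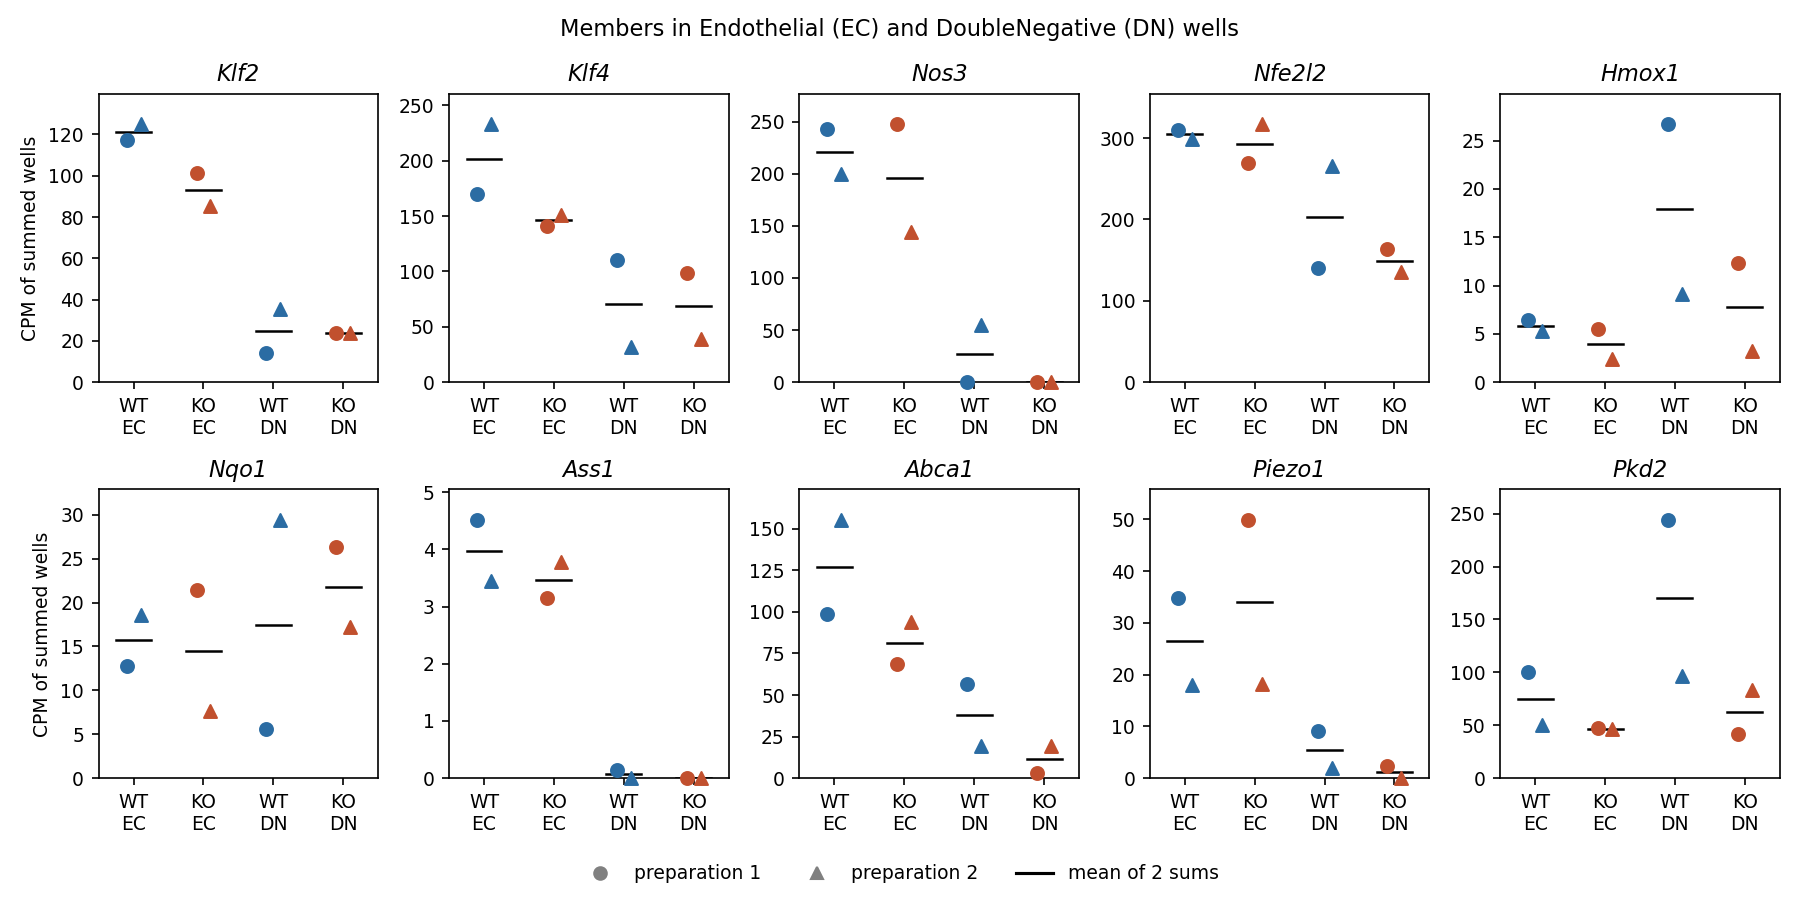
Level of each of the 10 genes in CPM, with 1 point for each of the 8 sums of wells (genotype, preparation and gate). Klf2 lies between 85.1 and 125 CPM in the 4 Endothelial sums and between 14 and 35.4 CPM in the 4 DoubleNegative sums, while Nqo1 overlaps between the gates.

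Of the 10 genes, 5 were higher in Endothelial than in DoubleNegative sums (Klf2, Nos3, Ass1, Abca1 and Piezo1) and none was lower, at a Benjamini-Hochberg adjusted p under 0.05 in the quasi-likelihood test of edgeR. Over all 12729 genes tested 19% passed, 9.79% as higher and 9.25% as lower. Nos3 and Ass1 passed the filter on low counts only through the Endothelial sums, where they are high, so their place among the 5 is a description.

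Klf2 was the member with the smallest adjusted p. Its level was 117 and 125 CPM in the WT Endothelial sums and 101 and 85.1 CPM in the KO Endothelial sums, against 14 and 35.4 CPM in WT and 23.7 and 23.7 CPM in KO DoubleNegative sums. The gates did not overlap, and the 35.4 CPM of WT DoubleNegative preparation 2 became 10.5 CPM without 1 well that held endothelial markers. The log2 difference was 2.04 (SE 0.36, adjusted p = 0.0051, edgeR). Klf2 passed with each sum left out in turn and under every other setting tried, with log2 differences of 1.71 to 2.52 under the latter. A Klf2 count was found in 82.6% and 94.0% of WT and 70.5% and 80.9% of KO Endothelial wells, and in 25% to 35% of DoubleNegative wells.

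Klf4 showed a smaller step between the gates. Its Endothelial levels were 170 and 233 CPM in WT and 141 and 151 CPM in KO, and its DoubleNegative levels 111 and 31.4 CPM in WT and 98.4 and 38.9 CPM in KO. All 4 Endothelial sums were above all 4 DoubleNegative sums, but the DoubleNegative sums of preparation 1 came close to them, and the log2 difference of 1.17 (SE 0.44) had an adjusted p of 0.101 in edgeR's test. Without the filter on low counts the adjusted p was 0.0086, and without WT DoubleNegative preparation 1 it was 0.014. The 31.4 CPM of WT DoubleNegative preparation 2 became 25.3 CPM without the well that held endothelial markers. Of the 13 members of the Klf family that were tested, 4 were higher in Endothelial sums and 1 lower, against 9.79% and 9.25% of all genes. The median log2 difference of the 13 was 0.98, against 0.15 over all genes. The 3 others that rose were Klf10 (1.96), Klf7 (1.19) and Klf3 (0.90), and Klf15 fell by 2.01 on the log2 scale.

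Nos3, the endothelial nitric oxide synthase, separated the gates most sharply. It stood at 243 and 200 CPM in WT and 247 and 144 CPM in KO Endothelial sums, and at 0 in 3 of the 4 DoubleNegative sums. The sum of WT DoubleNegative preparation 2 stood at 54.7 CPM, and all 54 counts came from 1 well with 12424 CPM of Pecam1, 984 CPM of Cdh5, 1398 CPM of Nos3 and 25.9 CPM of the smooth muscle actin gene Acta2, that is, with endothelial markers in the Cd31- gate. Without wells whose markers went against the gate, Nos3 was at 0 in all 4 DoubleNegative sums. Nos3 had a count in 89.1% to 94.0% of Endothelial wells and in 0 of 42, 0 of 40 and 0 of 14 wells in the other DoubleNegative sums, which allows shares of up to 7.14%, 7.50% and 21.4% (3 wells of the total), while the upper ends of the 95% exact binomial intervals were 8.41%, 8.81% and 23.2%.

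With 3 counts set as the floor of a DoubleNegative sum at 0, Nos3 was at least 537-fold higher in the Endothelial sum of WT preparation 1, at least 778-fold in KO preparation 1 and at least 44.4-fold in KO preparation 2. Its adjusted p was 0.0203 in edgeR's test, and 0.0911 without KO DoubleNegative preparation 1. Nos3 shares 294 bases of exon sequence with Atg9b on the other strand, and the library does not mark strand.

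Ass1, which makes argininosuccinate on the way back from citrulline to arginine and so feeds nitric oxide synthesis, was low and followed the pattern of Nos3. It stood at 4.51 and 3.44 CPM in WT and 3.15 and 3.78 CPM in KO Endothelial sums, at 0.151 CPM in WT DoubleNegative preparation 1 and at 0 in the other 3. Against the floor it was at least 9.91-fold higher in KO preparation 1, at least 1.13-fold in WT preparation 2 and at least 1.17-fold in KO preparation 2, so the depth of the last 2 could barely have shown a difference. The adjusted p was 0.0220 in edgeR's test. It was 0.109 with the sort as a block, a fit in which 4 of the 10 genes and 14% of all genes passed, and 0.0718 to 0.105 without any 1 Endothelial sum or KO DoubleNegative preparation 1. The processed pseudogene Gm5424 matches 73.1% of the Ass1 transcript at 99.5% identity and stood at 0 in all 8 sums, and reads that align to several places were not counted, so the level of Ass1 is uncertain.

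Around nitric oxide synthesis, 6 of 16 tested genes were higher and 4 were lower in Endothelial sums, against 9.79% and 9.25% of all genes. The median log2 difference of the 16 was -0.04. Without Nos3 and Ass1, which belong to the list, 4 of 14 were higher and 4 lower. Ddah1, which breaks down inhibitors of nitric oxide synthase, was at 45.1 to 75.0 CPM in Endothelial sums and at 0 in all DoubleNegative sums, at least 14.9-fold to 223-fold higher by sort. Gch1, which makes the cofactor tetrahydrobiopterin, was at 21.4 to 36.6 CPM in Endothelial and 0 to 6.48 CPM in DoubleNegative sums. Of the 4 lower genes, 3 sit on the receiving side: Gucy1b3 (log2 difference -4.54) and Gucy1a3 (-4.41), subunits of the soluble guanylate cyclase that nitric oxide activates, and Prkg1 (-2.84), the kinase that cyclic GMP activates. The fourth was Hsp90aa1 (-1.31), a chaperone.

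Nfe2l2, Hmox1 and Nqo1 did not pass between the gates. Nfe2l2 stood at 310 and 299 CPM in WT and 269 and 317 CPM in KO Endothelial sums, and at 141, 265, 163 and 135 CPM in WT preparations 1 and 2 and KO preparations 1 and 2 of the DoubleNegative gate. The sums did not overlap, but WT DoubleNegative preparation 2 at 265 CPM lay just under the lowest Endothelial sum, and the log2 difference was 0.67 (SE 0.28, adjusted p = 0.141, edgeR). Without that sum the adjusted p was 0.0287.

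Hmox1, the haem oxygenase that Nrf2 induces, was rare in endothelial cells. It stood at 6.41, 5.29, 5.51 and 2.36 CPM in the Endothelial sums of WT preparations 1 and 2 and KO preparations 1 and 2, and at 26.7, 9.11, 12.3 and 3.24 CPM in the DoubleNegative sums in the same order. Each DoubleNegative sum was above the Endothelial sum of its own sort. In preparation 2, however, the DoubleNegative values rest on 9 counts in WT and 3 counts in KO, from 2 wells each. The gates overlapped, and the log2 difference of -1.45 (SE 0.72) had an adjusted p of 0.209 in edgeR's test. A count was found in 3.97% to 14% of Endothelial wells.

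Nqo1, a quinone reductase and a second standard target of Nrf2, overlapped between the gates. It stood at 12.8, 18.6, 21.4 and 7.67 CPM in Endothelial and at 5.58, 29.4, 26.3 and 17.3 CPM in DoubleNegative sums in the order used for Hmox1, with a log2 difference of -0.47 (SE 0.63, adjusted p = 0.678, edgeR). A single well held 67.3% of the Nqo1 counts of WT Endothelial preparation 2, and 17.7% of all counts of that sum. Of 20 tested genes of the Nrf2 pathway none was higher and 2 were lower in Endothelial sums. Over all genes 9.79% were higher and 9.25% lower, so 2 of 20 is near the share over all genes. The 2 were Fth1 of ferritin (-1.13) and the small Maf gene Mafk (-1.13), and the median of the 20 was -0.21.

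Abca1, which exports cholesterol to apolipoprotein A-I, was higher in endothelial cells. Its levels were 98.6 and 155 CPM in WT and 68.8 and 93.7 CPM in KO Endothelial sums, and 56.4, 19.2, 3.39 and 19.4 CPM in DoubleNegative sums. The gates did not overlap, and the DoubleNegative sums spread more than the Endothelial ones. A single well held 50.8% of the Abca1 counts of WT Endothelial preparation 2, which stood at 92.6 CPM without it. The log2 difference was 2.26 (SE 0.59, adjusted p = 0.0282, edgeR), and it was 2.06 and passed as well without that well. The adjusted p was 0.0998 in wells with at least 100000 counts and 0.0535 to 0.087 without WT Endothelial preparation 1 or 2, KO Endothelial preparation 2, WT DoubleNegative preparation 2 or KO DoubleNegative preparation 1.

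Among 11 genes of cholesterol export and the liver X receptors, 5 were higher and 2 lower, against 9.79% and 9.25% of all genes. The median of the 11 was 0.75. The higher ones included Abcg1, which exports cholesterol to high-density lipoprotein, at 54.3 to 83.7 CPM against 0 to 10.1 CPM, and the receptor of that lipoprotein, Scarb1 (2.50). Srebf2, a transcription factor that drives cholesterol synthesis, was among the lower ones (-1.96).

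Piezo1, a channel that opens when the membrane is stretched or sheared, was higher in endothelial cells. It stood at 34.7 and 18.1 CPM in WT and 49.8 and 18.2 CPM in KO Endothelial sums, and at 9.04, 2.02, 2.44 and 0 CPM in DoubleNegative sums. Preparation 1 was above preparation 2 in both genotypes of the Endothelial gate. The gates did not overlap (log2 difference 3.11, SE 0.77, adjusted p = 0.0231, edgeR), and the adjusted p was 0.0905 in wells with at least 100000 counts, 0.0843 without WT and 0.112 without KO Endothelial preparation 1. Against the floor Piezo1 was at least 5.61-fold higher in KO preparation 2. A Piezo1 count was found in 42.1% to 52.0% of Endothelial wells and in 0% to 16.7% of DoubleNegative wells. Piezo1 overlaps Ctu2 by 535 bases of exon, which reads without strand cannot separate.

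Pkd2, which encodes polycystin-2, a cation channel of cilia and of the endoplasmic reticulum, leaned the other way. It stood at 101 and 49.9 CPM in WT and 47.4 and 46.4 CPM in KO Endothelial sums, and at 244, 96.2, 42.2 and 83.1 CPM in DoubleNegative sums. The gates overlapped, and the log2 difference of -0.90 (SE 0.42) had an adjusted p of 0.179 in edgeR's test. The sum of WT preparation 1 was the highest of its gate in both gates.

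Of 23 tested shear sensors and junctional genes, 12 were higher and 4 lower in Endothelial sums, against 9.79% and 9.25% of all genes. The median log2 difference of the 23 was 1.41. The list holds Pecam1, which encodes the Cd31 of the sort gate, Cdh5 and Kdr, which served to check the gates, and genes of the set, and without all of these 8 of 18 were higher and 4 lower with a median of 0.71. S1pr1, the receptor of sphingosine 1-phosphate, was at 333 to 594 CPM in Endothelial sums against 0 to 0.151 CPM. Flt4, the Vegf receptor 3, was at least 7.09-fold to 143-fold higher by sort. Sdc4, a heparan sulphate proteoglycan of focal adhesions, fell by 2.19 and the integrin gene Itgb3 by 2.35 on the log2 scale, and Piezo2 was listed at 0 in 3 Endothelial sums and 1 DoubleNegative sum.

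**Figure D2:**
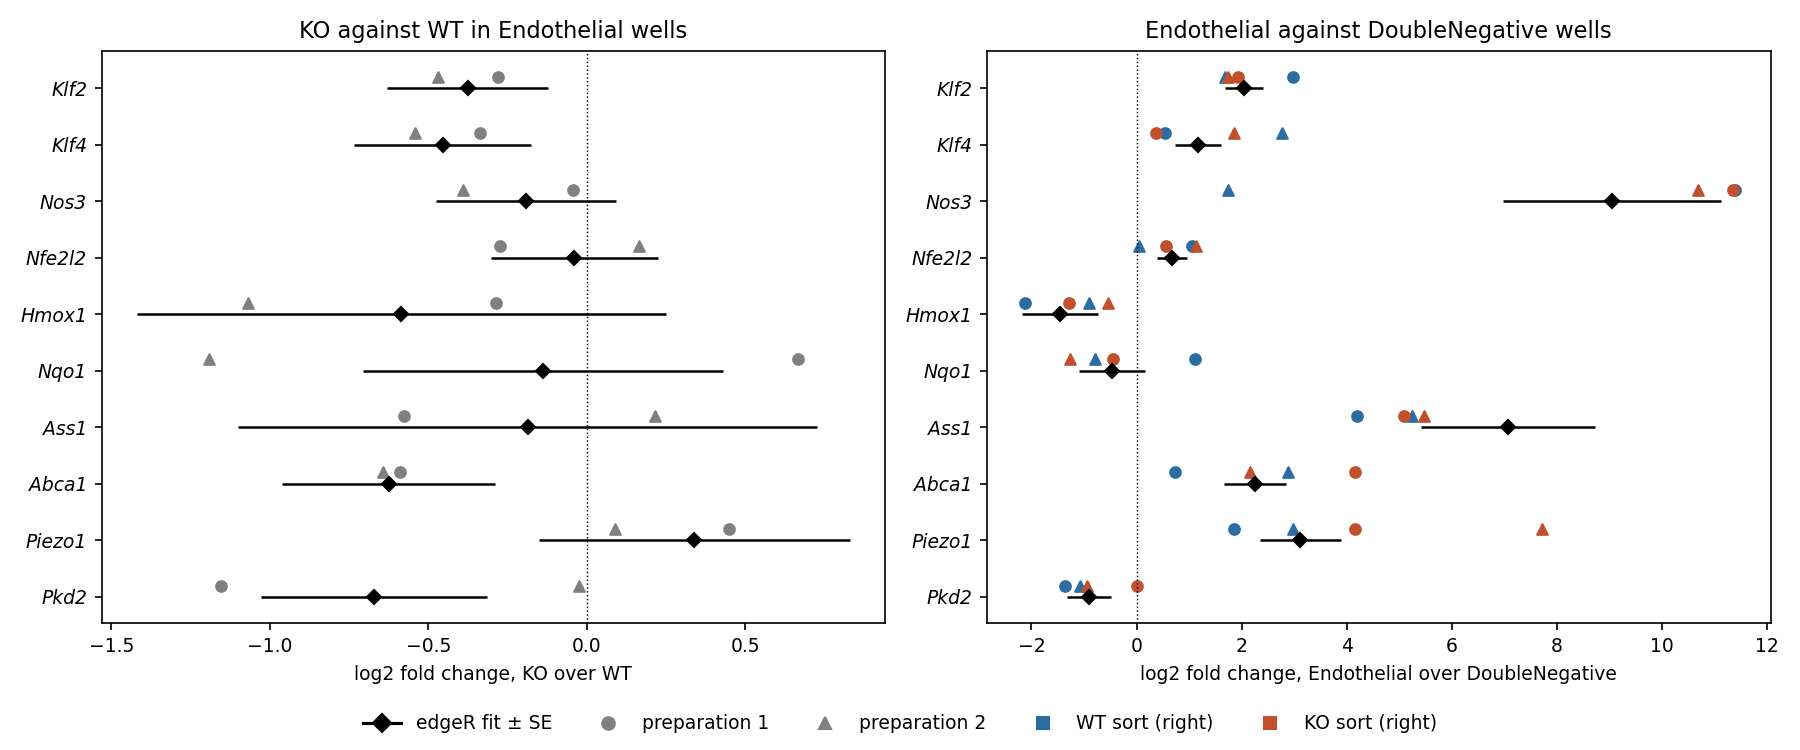
Log2 differences of the 10 genes with their SE, Endothelial minus DoubleNegative sums and KO minus WT among Endothelial sums. Klf2, Nos3, Ass1, Abca1 and Piezo1 passed in the first comparison, and none of the 10 in the second, where values ran from -0.67 (Pkd2) to 0.34 (Piezo1).

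The kinase relay from sensor to Klf2 was detected in both gates, with Map3k3, which encodes Mekk3, at 33.6 to 46.6 CPM in Endothelial and 6.07 to 36.2 CPM in DoubleNegative sums. Its list also holds the cerebral cavernous malformation genes that keep it in check. Of the 13 tested genes 1 was higher and 3 were lower, against 9.79% and 9.25% of all genes. The median of the 13 was 0.32. Heg1, a transmembrane partner of Krit1 at the junction, was higher by 3.85 on the log2 scale. Mef2c fell by 1.94, the Mef2 repressor Hdac5 by 1.64 and the kinase gene Map3k2 by 1.42, while Mapk7, which encodes Erk5, had a log2 difference of 0.63 (adjusted p = 0.62, edgeR).

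Of 15 tested genes known to follow laminar flow, 8 were higher and 1 lower with a median of 1.97, where 9.79% of all genes were higher and 9.25% lower. Without genes of the set and endothelial markers, 5 of 12 were higher and 1 lower with a median of 0.78. Gja5 of the arterial gap junction was at 1396 to 2163 CPM in Endothelial sums and at 0, 0, 0.151 and 324 CPM in DoubleNegative sums, the last in the sum with the well that held endothelial markers. The prostaglandin transporter Slco2a1 was at 301 to 438 CPM against 0 to 30.4 CPM, and Adm, which encodes the vasodilator adrenomedullin, fell by 6.30. Thbd, which encodes the anticoagulant thrombomodulin, had a log2 difference of 1.97. Genes known to follow disturbed flow and to mediate adhesion were higher at 9 of 16 with 4 lower and a median of 2.77. Among them were Vwf at 2072 to 4057 CPM against 0 to 18.2 CPM and Selp at 328 to 400 CPM against 0 to 25.3 CPM, whose proteins are stored together in Weibel-Palade bodies, and Angpt2 was lower (-3.10). Vwf is also one of the endothelial markers used to check the gates, and without it 8 of 15 were higher. In a DoubleNegative sum 5 of 15 laminar flow, 6 of 16 disturbed flow and 10 of 23 shear sensor genes were at 0. So were 5 of 16 genes of the nitric oxide list and 3555 of all 12729 genes tested. Such genes can pass the filter on low counts through the Endothelial sums alone, so their place in the counts of each list is a description. For genes at 0 in a DoubleNegative sum, edgeR's value was also replaced by the mean log2 ratio of CPM over the 4 sorts. In it, DoubleNegative sums under 3 counts were set to 3. The medians were then 1.76 for laminar flow, 2.96 for disturbed flow, 0.49 for cholesterol export, 1.17 for the Klf family and 0.031 for all genes. This ratio lacks edgeR's normalization, so a shift of a median does not come from the floor alone.

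The second question was whether these genes differ between KO and WT endothelium, since Amotl2 is a junctional protein that the study connects to flow sensing. None of the 10 genes passed in edgeR's test, and neither did any other of the 12702 that entered it (0%). An unadjusted p under 0.05 was found for 468 genes and for none of the 10, and DESeq2 called 37 genes and none of the 10. With 2 sums per group, a p that misses the threshold does not show that these genes did not differ.

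The point estimates of 9 of the 10 lay below 0, several of them by less than their SE, while the median over all 12702 genes was 0.0025. The largest were those of Pkd2 (log2 difference -0.67, SE 0.36), Abca1 (-0.62, SE 0.34), Hmox1 (-0.58, SE 0.83), Klf4 (-0.45, SE 0.28) and Klf2 (-0.38, SE 0.25). Nos3 (-0.19, SE 0.28), Ass1 (-0.19, SE 0.91), Nqo1 (-0.14, SE 0.57) and Nfe2l2 (-0.04, SE 0.26) were nearer to 0, and Piezo1 had a value of 0.34 (SE 0.49). Every adjusted p was 1.00 in edgeR's test. Without the deepest well of WT Endothelial preparation 2, a setting chosen after the data were seen, the values were -0.22 for Abca1, -0.26 for Klf4, -0.34 for Klf2, -0.04 for Nos3, 0.085 for Nfe2l2 and 0.49 for Nqo1.

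Within each preparation, 6 of the 10 had a lower level in KO in both (Klf2, Klf4, Nos3, Hmox1, Abca1 and Pkd2), 1 had a higher level in both (Piezo1) and 3 went opposite ways (Nfe2l2, Nqo1 and Ass1). Over all genes 23.6% were lower in both, 26.4% higher in both and 49.1% opposite. For Klf2 the log2 differences were -0.28 in preparation 1 and -0.47 in preparation 2, and for Klf4 -0.34 and -0.54. Those of Abca1 were -0.59 and -0.64, whereas those of Pkd2 were -1.15 and -0.02, so that the estimate of Pkd2 rests on preparation 1. The median over the 10 genes was -0.28 and -0.43, against 0.0092 and 0.025 over all genes.

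The values of preparation 2 leaned on 1 well. The deepest well of WT Endothelial preparation 2 held 50.8% of its Abca1 counts, 36.0% of its Nos3, 35.8% of its Klf4 and 22.8% of its Klf2 counts, beside 17.7% of all counts. Without it the differences of preparation 2 were 0.08 for Abca1, -0.20 for Klf4, -0.05 for Nos3 and -0.40 for Klf2. Of the 10 genes 5 were then lower in both preparations (Klf2, Klf4, Nos3, Hmox1 and Pkd2), 1 was higher in both (Nqo1) and 4 were opposite, and the median in preparation 2 was -0.12 against 0.017 over all genes.

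The share of wells with a Klf2 or Klf4 count was also lower in KO, as it was for many genes. After each well was thinned to 20000 counts, Klf2 was found in 67.7% of WT and 55.0% of KO wells in preparation 1 (95% exact binomial intervals 61.3% to 73.6% and 49.2% to 60.7%) and in 80.0% and 64.0% in preparation 2 (66.3% to 90% and 53.2% to 73.9%). Klf4 was found in 72.3% and 63.2% of wells in preparation 1 and in 78.0% and 68.5% in preparation 2. The Klf2 intervals did not overlap in preparation 1 and overlapped in preparation 2. These intervals cover counting error only, and wells of a preparation share their mice, plate and sort. Over 6331 genes, 47.1% had a lower share in KO in both preparations, and the median difference was -4.27 percentage points in preparation 1 and -1.89 in preparation 2, against -12.7 and -16.0 for Klf2 and -9.10 and -9.46 for Klf4. Thinned wells held a median of 2944 and 3690.5 genes in WT and of 2572.5 and 3452 in KO, and the part of this in the shares of the 10 genes was not tested.

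Pkd2 was found in 47.7% of WT and 20.9% of KO thinned wells in preparation 1 and in 40.0% and 42.7% in preparation 2. Nfe2l2 went from 80.4% to 69.2% in preparation 1 and from 90% to 88.8% in preparation 2, and Nos3 from 82.1% to 78.8% and from 78.0% to 77.5%. All 5 of these genes had a lower share in KO in preparation 1, as did 78.0% of the 6331 genes, and in that preparation WT and KO wells did not share a plate. Piezo1 had a higher share there (30.1% against 26% in WT). In preparations 1 and 2 the share of Abca1 differed by -9.72 and -12.3 percentage points. The differences were -1.18 and -5.51 for Hmox1, 1.05 and 0.99 for Nqo1 and -0.14 and 8.36 for Ass1. Of the 8 genes of the set among the 6331, 5 had a lower share in KO in both preparations (Klf2, Klf4, Nos3, Nfe2l2 and Abca1). Over the 6331 genes this held for 47.1%.

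**Figure D3:**
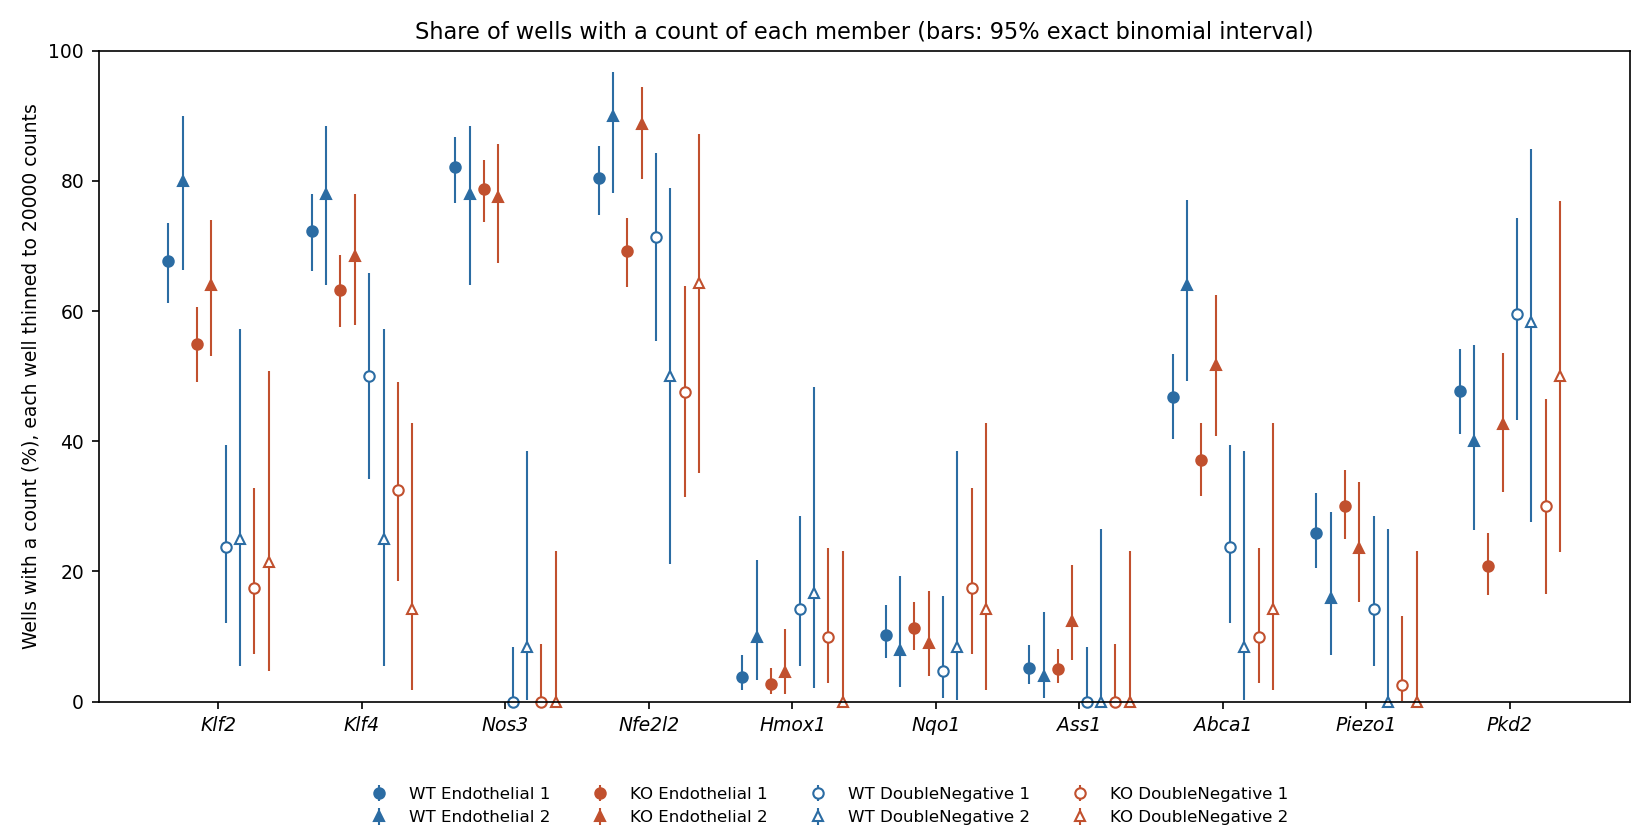
Percent of wells with at least 1 count of each gene after thinning every well to 20000 counts, with 95% exact binomial intervals, by set of wells. Among Endothelial wells, Klf2 and Klf4 lie lower in KO than in WT wells of the same preparation. Pkd2 does so in preparation 1 (20.9% against 47.7%) but not in preparation 2.

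Genes that respond quickly to tissue handling also had a median estimate below 0. Of 14 immediate early and dissociation genes, 6 had a lower level in KO Endothelial sums at an unadjusted p under 0.05 and none at the adjusted threshold, with a median log2 difference of -0.81. The values were -0.86 for Egr1, -0.93 for Fos, -1.46 for Hspa1a and -2.76 for Hspa1b. The summed level of the list was 3868 and 6944 CPM in WT and 3312 and 2989 CPM in KO Endothelial sums and 4759 to 14226 CPM in DoubleNegative sums. The gap between WT and KO was thus wider in preparation 2, and in preparation 1 some genes of the list were higher in KO. Between the gates none of these 14 genes was higher in Endothelial sums and 4 were lower, against 9.79% and 9.25% of all genes. The median of the 14 was -0.85, and Atf3 (-3.71), Nr4a1 (-2.79) and Fos (-2.41) were among the 4. Klf2 and Klf4 are themselves induced quickly by many stimuli, and the part of handling in their levels was not tested.

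No list had a member past the adjusted threshold between KO and WT endothelium. Klf11 was the family member with the largest log2 difference (1.73, adjusted p = 1.00 in edgeR's test), at 9.59 and 7.59 CPM in WT and 26.8 and 29.6 CPM in KO sums. Medians of the lists were close to 0 for the shear sensors (0.04), the relay (0.08), laminar flow genes (-0.15) and disturbed flow genes (0.01).

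Between KO and WT DoubleNegative sums, none of the 10 genes and 0% of all genes passed in edgeR's test, with 1130 genes at an unadjusted p under 0.05 and 189 called by DESeq2. Of the 10 genes, Pkd2 (log2 difference -1.42, SE 0.60, adjusted p = 0.544) and Nos3 had an unadjusted p under 0.05, and the Nos3 value rests on the 1 well described above. DESeq2 called Nos3 on that same well. The mix of smooth muscle cells and fibroblasts differed between the DoubleNegative sums, and its part in these values was not tested. No difference of the KO effect between the gates passed for any of the 10 or for any other gene in edgeR's interaction test (0%), with 657 genes at an unadjusted p under 0.05 and 46 called by DESeq2, Nos3 among them.

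Across single Endothelial wells, Klf2 and Klf4 were the pair of the set that varied together most. The mean Pearson correlation of log2(CPM + 1) over the 4 sets of wells was 0.26, with 0.17 and 0.34 in the WT and 0.34 and 0.21 in the KO sets of preparations 1 and 2. This was the only one of the 45 pairs above 0.2, 34 pairs lay between -0.1 and 0.1, and the median pair was at 0.05. Wells of a set share plate, sort and range of depth, and in sparse counts values this small are a description only. After thinning, Klf4 was found in 73.6% of wells with and 69.7% of wells without Klf2 in WT preparation 1, in 82.5% and 60.0% in WT preparation 2, in 72.9% and 51.5% in KO preparation 1, and in 84.2% and 40.6% in KO preparation 2.

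**Figure D4:**
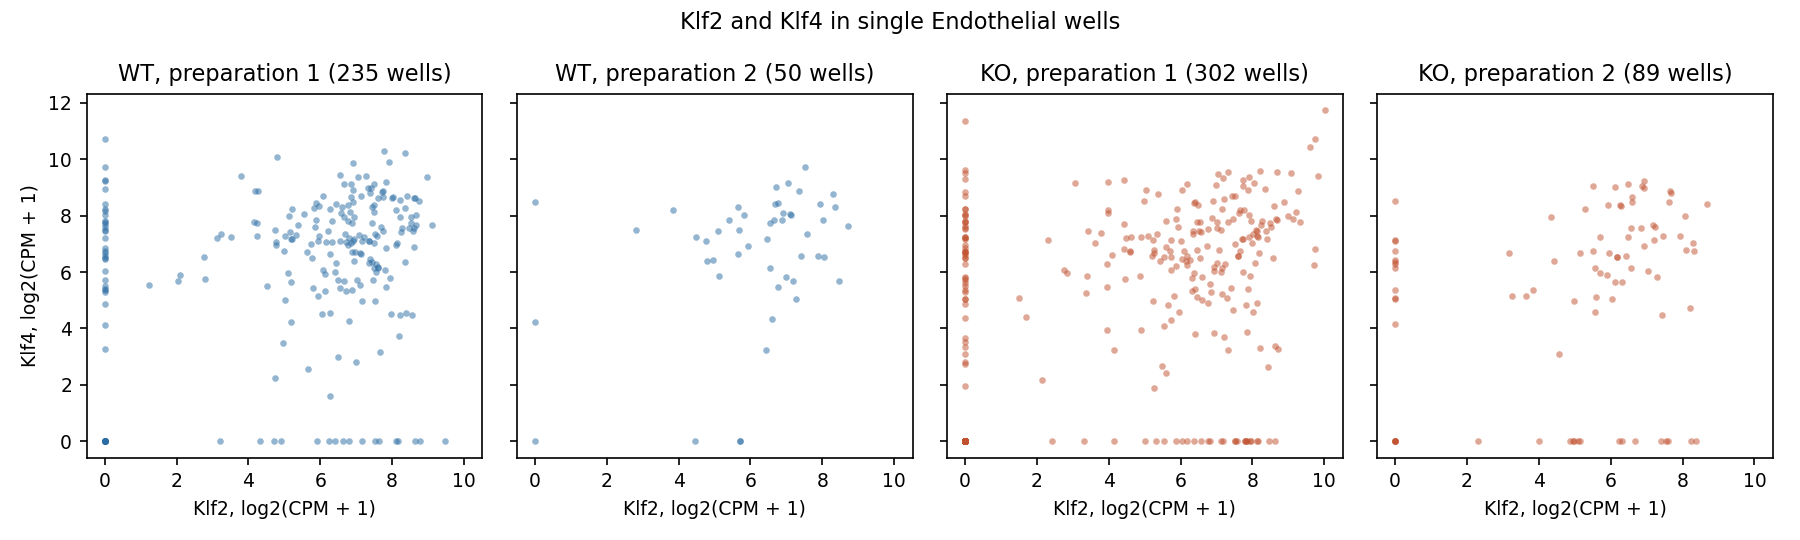
Klf2 against Klf4 in single Endothelial wells as log2(CPM + 1), 1 panel for each genotype and preparation and 1 point for each well. Many wells hold both genes and some hold only one, and the correlations run from 0.17 to 0.34.

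The remaining genes had low correlations with Klf2 and Klf4 in single wells. Nos3, a target of Klf2, had a mean correlation of 0.13 with Klf2, and of 0.02 after thinning. Ass1 had a mean correlation of 0.15 with Klf2, and 0.055 after thinning. Nfe2l2 had 0.13 with Nos3 and with Klf4, and 0.025 and 0.087 after thinning. Of the 45 pairs, 15 were above 0 in all 4 sets and 12 had a mean below 0. The median pair, at 0.05, was near the values for genes outside the set. Members other than Hmox1 and Nqo1 had median correlations of 0.022 (Klf4) to 0.067 (Nfe2l2) with 6330 other genes.

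**Figure D5:**
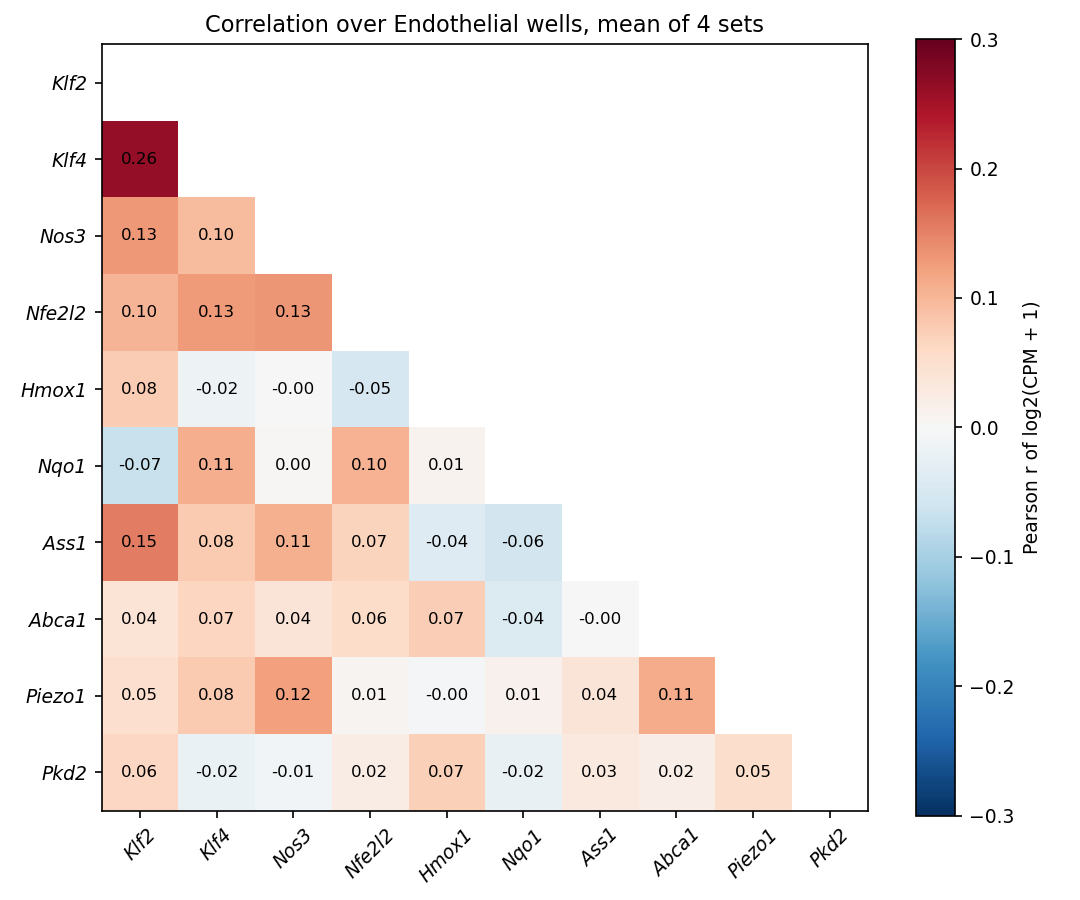
Mean Pearson correlation of log2(CPM + 1) for each pair of the 10 genes over the 4 sets of Endothelial wells. Klf2 with Klf4 (0.26) is the highest of 45 pairs, and the lowest is at -0.07.

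Among 6331 genes with a count in at least 20% of wells in all 4 sets, the genes most like Klf2 were the phosphatase gene Dusp1 (mean correlation 0.28), Podxl of the luminal surface (0.27), Klf4 (0.26), Ninj1 (0.25) and Ly6c1 (0.25). Those most like Klf4 were Klf2 (0.26), Ppp1r15a (0.26), Junb (0.25), Adamts1 (0.25) and Tmem2 (0.25), and Dusp1 and Junb belong to the immediate early list. Correlation with the summed immediate early genes was 0.28 for Klf4, 0.23 for Klf2 and 0.00 for Nos3. Nos3 resembled other genes instead: Heg1 (0.37), Pecam1 (0.36), Ace (0.35), Fbln2 (0.34) and Gja5 (0.33). The correlation of Nos3 with the summed endothelial markers was 0.34, against 0.24 for Klf2 and 0.18 for Klf4. All correlations include the 21 Endothelial wells whose markers went against the gate, and the part of those wells in these values was not tested.

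Nfe2l2 was most like Eef1d (0.29), Rnf13 (0.27), the peroxiredoxin gene Prdx6 (0.27), Arl1 (0.25) and Tbca (0.25). The other 4 genes with enough wells had weaker likenesses, led by Slc25a11 for Abca1 (0.23), Shroom4 for Piezo1 (0.25), Dnajc14 for Pkd2 (0.22) and Pdap1 for Ass1 (0.20). Hmox1 and Nqo1 had a count in too few wells for this comparison.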

How the data were processed

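Single cells were sequenced with Smart-seq2 on a NextSeq instrument. Per the labels and the study's methods, the authors aligned reads with STAR 2.7.7a to GRCm38, removed duplicates with Picard 2.22.0 and used HTSeq 0.9.1 for counting, and the deposited values are raw counts per gene and well. The annotation release is not given in the sources used here. Genes held 51.9% of all counts, spike-ins 1.25% and HTSeq summary lines, such as reads aligned to several places, 46.9%. Neither spike-ins nor summary lines entered library sizes or tests.

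Counts of kept wells were summed per genotype, preparation and gate. Sums were tested with edgeR 4.0.16 (quasi-likelihood, TMM, filterByExpr, Benjamini-Hochberg adjusted p under 0.05) in R 4.3.3, with DESeq2 1.42.0 as the other tool. The biological coefficient of variation was 0.472 among Endothelial sums and 0.616 over all 8. With 2 preparations of pooled mice per group, p-values measure the spread between these sums. Both gates of a sort hold different cells from the same suspension of the same mice. After removal of group means the sums of the 2 gates correlated by 0.0635 in WT and 0.0444 in KO. Fits with a block were made beside the others. The block was the sort number for KO against WT, and the sort itself (genotype and number) for the gates and the interaction.

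Coordinates and exon lengths are from GENCODE on GRCm38, in which 95.7% of the gene symbols were found. Wells were thinned to 20000 counts to compare shares across depths. No doublet caller was run, since cells were sorted singly. Correlations used log2(CPM + 1), and Python 3.11.15 with numpy 2.4.6, pandas 2.3.3 and scipy 1.17.1 gave the values not from R. The tests were checked on simulated counts, in which few or no changes of 1 on the log2 scale passed. A missed threshold, between genotypes or between gates, therefore does not show that a gene did not differ.

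The genes and the lists were chosen with earlier results of these data known. Named were all 10 genes, Amotl2 and EYFP as checks, from each list up to 3 of the largest changes in each direction past the threshold and up to 2 others, and the 5 genes most alike in correlation. In the immediate early list 4 genes are given after their values were seen, and for 4 genes of the set the most alike gene alone is given. Hsp90aa1 was named after its value was seen. A list gene that the naming rule would give is not reported here.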

Additional observations from a re-analysis of the deposited data

How the results depend on the processing

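Between KO and WT Endothelial sums the number of genes called went from 0 to 1 with RLE normalization, without wells whose markers went against their gate, without the deepest well of WT Endothelial preparation 2 (chosen after seeing the data) and with the sort number as a replicate block (EYFP in each), 4 after thinning, 37 with DESeq2 and 104 without a filter, and 5 to 311 with 1 sum left out. None of the 10 genes was called under any of these. Between the gates 1355 to 2542 genes were called with 1 sum left out, 1758 in wells with at least 100000 counts and 1779 with the sort as a replicate block, and 2 to 6 of the 10 genes with 1 sum left out against 3 in deep wells and 6 without a filter. In DoubleNegative wells 218 genes were called without a filter, 189 with DESeq2 and 0 to 48 with 1 sum left out, and for the interaction 163, 46 and 0 to 42. The block changed no call of the 10 genes other than that of Ass1 between the gates. KO and WT sorts of number 1 share no more than that number in the labels, while the sorts of number 2 also share a plate. The deviations of KO and WT sums of the same number correlated by 0.142 in Endothelial and 0.0761 in DoubleNegative sums.

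Directions turned only for values that had not passed. After thinning, KO against WT was 0.10 for Nfe2l2 and 0.29 for Nqo1 in Endothelial and -1.07 for Klf2 in DoubleNegative sums, the interaction was 0.85 for Klf2 and 0.26 for Klf4, and Nqo1 between the gates was 0.043. In deep wells Klf4 was 0.28 between KO and WT DoubleNegative sums, and the interaction was -0.16 for Nos3 and -0.34 for Ass1. Without wells against their gate Klf4 was 0.021 and the interaction of Nos3 -0.18, and with the block Klf4 was 0.0068. Without the deepest well KO against WT was 0.085 for Nfe2l2 and 0.49 for Nqo1, and the interaction of Nqo1 was 0.073. The causes were not tested. With 1 sum left out, KO against WT in Endothelial sums ran from -0.51 to 0.078 for Nos3, -0.26 to 0.16 for Nfe2l2, -0.93 to 0.36 for Nqo1, -0.42 to 0.034 for Ass1 and -0.43 to 0.87 for Piezo1. In DoubleNegative sums it ran from -0.55 to 0.79 for Klf2, -0.88 to 1.18 for Klf4, -0.80 to 0.12 for Nfe2l2 and -0.38 to 2.01 for Nqo1, and Nqo1 between the gates ran from -0.88 to 0.33. The interaction ran from -1.16 to 0.18 for Klf2, -1.63 to 0.41 for Klf4, -0.19 to 13.3 for Nos3, -0.16 to 0.76 for Nfe2l2, -0.44 to 1.88 for Hmox1, -2.13 to 0.27 for Nqo1, -0.19 to 4.84 for Ass1 and -0.082 to 1.36 for Pkd2. Where 1 sum is left of a group, it is assumed to vary like the other groups. The 2 DoubleNegative sums of preparation 2, of 988038 and 926398 counts, limit low genes such as Ass1 most.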
